A study of Mus musculus with 2 samples.

Results

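Islands of Brg1 binding were examined at 33 genes of the MAP kinase cascade, in medulloblastomas that had formed spontaneously in mice of the genotype CAG-CreER, Rosa26-SmoM2. Brg1 is the catalytic ATPase of the BAF (SWI/SNF) remodelling complexes, which move nucleosomes, and SmoM2 is an active form of Smoothened, the receptor component that turns on Hedgehog signalling. All tumour cells came from this 1 genotype: 1 library was immunoprecipitated with the J1 antibody, labelled Brg1/Brm, so that an island can hold either ATPase, and 1 input library without antibody is not analysed here. CreER was driven by the broadly active CAG promoter, and how many animals were pooled is not given in the sources used here. A dissociated tumour can hold other cells, and which cells an island comes from cannot be told. All 4 granule lineage genes looked up, Atoh1, Barhl1, Zic1 and Neurod1, had an island in the gene or within 5 kb, against 16.9% of all protein-coding genes. These 4 were picked for their lineage, and the island list holds no expression.

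The members were chosen by gene family (MAPK, MAP2K and MAP3K), as a group proposed with earlier results of these data known, and a member was counted when an island of the deposited list lay in the gene or within 5 kb of it. An island is a stretch of the genome in which the peak caller found more reads than it required. Among 21631 protein-coding genes, these are 33, of which 13 had an island. With a single ChIP library there was no replicate spread, and no test was made. The 95% intervals given with reads and shares describe counting error and nothing else. The list held 5727 islands with a median of 68 reads, and the depth of the library is unknown. A gene with no island is not shown to lack Brg1, since weaker enrichment would not appear in the list.

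The cascade is a relay of 3 kinase tiers: a MAP3K phosphorylates a MAP2K, which phosphorylates a MAPK, and the MAPK then acts on transcription factors, other kinases and cytoskeletal proteins. The ERK branch carries growth factor and Ras signals, the JNK and p38 branches carry stress and cytokine signals, and ERK5 has a branch of its own. In cerebellar granule neuron progenitors, the cells from which Hedgehog-type medulloblastoma arises, proliferation is driven by Sonic hedgehog and modulated by growth factor signals that use these relays.

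An island lay in the gene or within 5 kb in 13 of the 33 members (39.4%, Wilson 95% interval 24.7 to 56.3), against 16.9% of all protein-coding genes. Long genes held islands more often, so the shares were also set out by gene length. Under 20 kb, 2 of 12 members had an island (16.7%), against 10.4% of all genes of that length. From 20 to 60 kb, 3 of 7 members did (42.9%), against 17.2%. From 60 to 150 kb, 7 of 11 members did (63.6%), against 28.8%. Over 150 kb, 1 of 3 members did (33.3%), against 45.7%. At the shares of all genes in these length classes, 33 genes of these lengths would hold 6.99 with an island, and 13 were found. The members with an island had a median length of 71.8 kb (5.46 to 304 kb), and those without one had a median of 20.1 kb (5.42 to 218 kb), so the ranges overlapped.

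**Figure D1:**
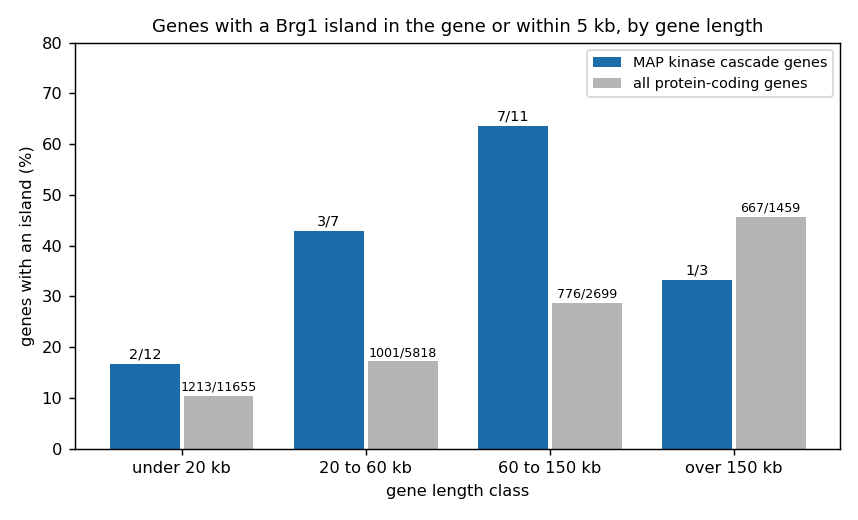
Percent of genes with a Brg1 island in the gene or within 5 kb (vertical axis) by gene length class (horizontal axis), for the 33 MAP kinase cascade genes (blue, left bars) and all protein-coding genes (grey, right bars), with the number of genes above each bar. The members' bars are the higher ones in the classes up to 150 kb and the lower one over 150 kb, where only 3 members fall.

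The middle tier of the cascade had the fewest genes with an island. Of the MAPK genes, 6 of 12 had an island (50%, Wilson 95% interval 25.4 to 74.6), and of the MAP3K genes 6 of 14 did (42.9%, 21.4 to 67.4). Of the MAP2K genes 1 of 7 did (14.3%, 2.57 to 51.3). The intervals of the 3 tiers overlap, so these data do not separate them. Lengths alone would give 2.17 MAPK, 1.7 MAP2K and 3.11 MAP3K genes with an island. The median length of the MAP2K genes was 67.8 kb, above the 17.1 kb of the MAPK genes. Summed over the tiers, MAPK genes held 8 islands with 575 reads, the MAP2K gene 1 island with 74 reads, and MAP3K genes 17 islands with 1968 reads. Of the MAP3K reads, 1209 were at Map3k1, and the other MAP3K genes held 759 reads in 9 islands.

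The branches were compared through their MAPK and MAP2K genes. In the p38 branch 3 of 6 genes had an island (50%, Wilson 95% interval 18.8 to 81.2), namely the kinases Mapk11 and Mapk14 and their activator Map2k6. In the JNK branch 1 of 5 did (20%, 3.62 to 62.4), namely Mapk10. In the ERK branch none of the 3 genes examined did, Mapk3 (ERK1), Map2k1 (MEK1) and Map2k2 (MEK2), where the Wilson upper bound is 56.1% and 3 genes set no tighter limit. At the shares for their lengths, 0.944 p38, 1.31 JNK and 0.496 ERK genes would have one. The ERK5 branch, unlike the others, was counted with its MAP3K genes Map3k2 and Map3k3. Of its 4 genes, 2 had an island, the kinase Mapk7 and the MAP3K Map3k3, where the lengths of the 4 would give 1.14. Neither Mapk7 nor Map3k3 had an island at a listed transcription start. The branches hold so few genes that their intervals overlap throughout.

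**Figure D2:**
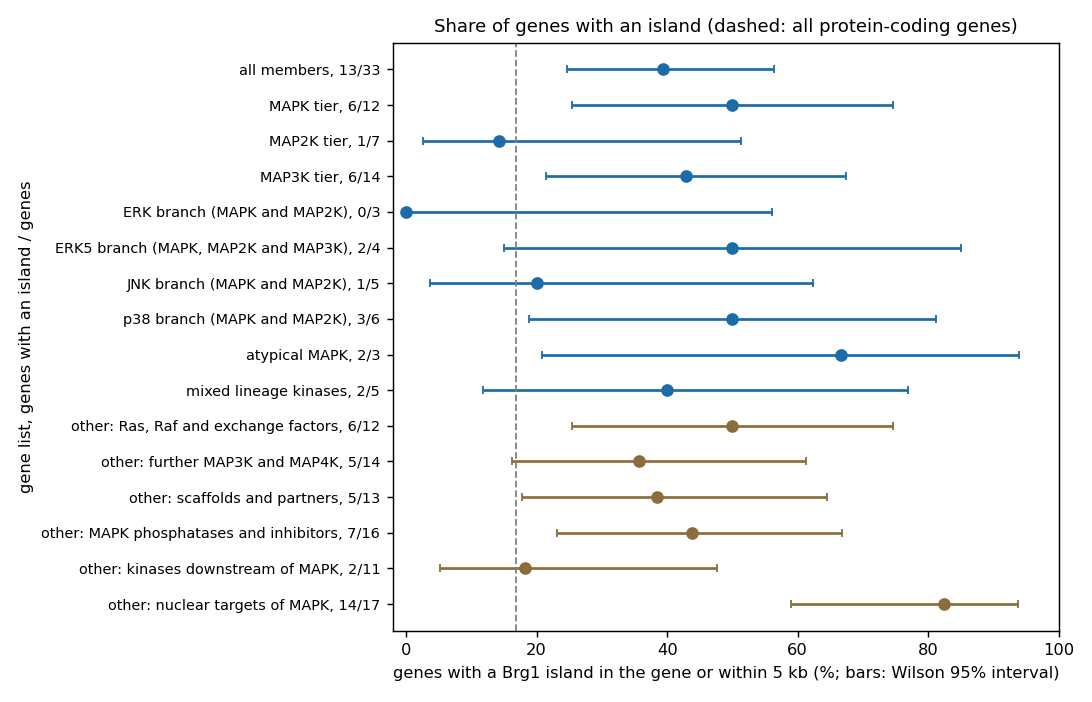
Percent of genes with a Brg1 island in the gene or within 5 kb (horizontal axis, point) with the Wilson 95% interval (bars), for the members, tiers and branches (blue) and the other pathway lists (brown); the dashed line is the 16.9% of all protein-coding genes. The MAP2K tier at 14.3% and the ERK branch at 0% lie below the line, and the nuclear targets of MAP kinases at 82.4% lie farthest above it.

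Most members with an island had one at a listed transcription start. By island the order was the other way: of the 24 in genes with a listed start, 9 lay within 1 kb of one. RefSeq's promoter table (GRCm38.p6, which is mm10) lists 38 starts for 28 of the 33 members. An island lay within 1 kb of a listed start in 9 of these 28 genes (32.1%, Wilson 95% interval 17.9 to 50.7), against 9.53% of the 17274 protein-coding genes with a listed start. The 9 were Mapk6, Mapk10, Mapk11, Mapk14, Map2k6, Map3k1, Map3k4, Map3k9 and Map3k14, and in each the island covered the start itself. The promoters of 5 of them are shown because they carry the p38 and JNK counts and the gene with the most reads. Each runs 5′ to 3′ on the gene's own strand from 250 bases before to 50 bases after the start, with letters from RefSeq GRCm38.p6. Capitals mark matches, on either strand, to the GC box GGGCGG, the CCAAT box CCAAT, the CRE TGACGTCA, AP-1 TGANTCA, the GLI motif GACCACCCA and the NFI core TTGGCA.
Mapk10 (chr5:103211285-103211584, minus strand): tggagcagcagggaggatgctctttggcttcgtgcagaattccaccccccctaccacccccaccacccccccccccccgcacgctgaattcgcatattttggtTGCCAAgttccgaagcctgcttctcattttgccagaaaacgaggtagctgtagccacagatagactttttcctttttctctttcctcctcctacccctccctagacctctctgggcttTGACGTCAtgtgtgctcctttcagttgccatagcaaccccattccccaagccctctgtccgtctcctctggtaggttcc
Mapk11 (chr15:89149557-89149856, minus strand): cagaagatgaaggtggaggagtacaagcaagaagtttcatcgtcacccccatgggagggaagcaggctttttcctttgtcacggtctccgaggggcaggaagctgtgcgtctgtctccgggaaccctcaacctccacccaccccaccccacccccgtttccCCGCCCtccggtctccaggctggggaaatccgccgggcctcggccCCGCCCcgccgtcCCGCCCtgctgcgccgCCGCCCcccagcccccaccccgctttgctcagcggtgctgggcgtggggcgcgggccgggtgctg
Mapk14 (chr17:28691092-28691391, plus strand): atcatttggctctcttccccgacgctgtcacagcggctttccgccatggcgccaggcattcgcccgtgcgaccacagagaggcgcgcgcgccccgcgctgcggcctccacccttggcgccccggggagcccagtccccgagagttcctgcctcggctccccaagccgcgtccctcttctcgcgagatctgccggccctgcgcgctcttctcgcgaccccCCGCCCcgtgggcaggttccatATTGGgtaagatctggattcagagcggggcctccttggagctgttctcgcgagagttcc
Map2k6 (chr11:110478265-110478564, plus strand): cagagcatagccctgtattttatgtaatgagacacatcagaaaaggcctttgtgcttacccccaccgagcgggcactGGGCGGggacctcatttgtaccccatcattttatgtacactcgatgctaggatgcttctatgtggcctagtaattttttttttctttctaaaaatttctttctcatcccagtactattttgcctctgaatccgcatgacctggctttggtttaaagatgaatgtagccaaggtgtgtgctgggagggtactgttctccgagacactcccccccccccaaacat
Map3k1 (chr13:111808944-111809243, minus strand): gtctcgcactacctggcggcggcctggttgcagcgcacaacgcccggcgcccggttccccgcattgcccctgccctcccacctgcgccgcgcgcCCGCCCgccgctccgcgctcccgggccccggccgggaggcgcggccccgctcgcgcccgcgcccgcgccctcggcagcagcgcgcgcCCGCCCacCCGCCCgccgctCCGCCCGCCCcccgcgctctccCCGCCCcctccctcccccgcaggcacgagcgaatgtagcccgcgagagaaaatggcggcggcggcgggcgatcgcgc

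The windows differ widely in base composition. The Map3k1 promoter has 82.7% G and C, 55 CpG dinucleotides and 6 GC boxes, some of which overlap. The Mapk11 promoter has 69.7% G and C and 4 GC boxes, and the Mapk14 promoter 68.7% with 1 GC box and 1 CCAAT box. The Mapk10 promoter, at 55.3% G and C, has no GC box but holds the only CRE found among the members' starts, a motif present in 2.26% of all listed protein-coding starts, and an NFI core. The Map2k6 window has 46.3% G and C and 6 CpG, with 1 GC box; it lies at the first of the inner starts of the gene.

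Over all members, the 12 starts within 1 kb of an island had a median of 69.2% G and C (46.3 to 82.7), and the 26 other member starts a median of 61.3% (32.7 to 79.7). Over all listed protein-coding starts the medians were 64.0% within 1 kb of an island and 55.7% elsewhere. A GC box was found in 9 of the 12 member starts with an island and in 15 of the 26 without, and in 69.6% of all starts with an island and 44.2% of those without. An E-box (CANNTG) was found in 10 of the 12 and 14 of the 26, while over all starts the order was the opposite, with 56.7% of those with an island and 70.3% of those without. A CCAAT box was found in 3 of the 12 and 7 of the 26, and in 37.0% of all starts with an island and 38.6% of those without. The AP-1 motif was found in 0 of the 12 and 3 of the 26, and in 4.06% of all starts with an island and 7.35% of those without. The NFI core, which can share bases with a CCAAT box read on the other strand, was found in 1 of the 12 and 1 of the 26, and in 12.1% of all starts with an island and 13.2% of those without. The GLI motif was in none of the members' windows and in 0.181% of all starts. Starts of one gene can lie in overlapping windows, so these are not independent, and a match is a description of letters only.

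Among the p38 kinases, which respond to stress and cytokines, Mapk14 (p38 alpha) had an island of 93 reads (exact Poisson 95% interval 75.1 to 114) over both of its listed starts (chromosome 17, 28690256 to 28693055, mm10). It reached 1.09 kb before and 1.71 kb after the first start, and also overlapped the neighbour Slc26a8, whose nearest listed start was 269 bp away. Mapk11 (p38 beta) had a narrower island of 47 reads (34.5 to 62.5) over its start (chromosome 15, 89149171 to 89150370), at percentile 8.36 of all islands by reads and 86.7 by reads per 200 bp. Each of these genes has a p38 relative next to it without an island. Mapk12 (p38 gamma) lies 0.905 kb from Mapk11, and the island at the Mapk11 start is the nearest to it, 7.59 kb away. Mapk13 (p38 delta) lies 20.9 kb from Mapk14, and its nearest island was 20.4 kb away, at Brpf3, with 102 reads. The p38 activator Map2k6 (MKK6) had an island of 74 reads (58.1 to 92.9; chromosome 11, 110478087 to 110479886) inside the gene. It covered both inner listed starts, while the outermost listed start was 79.0 kb away. The other p38 activator, Map2k3 (MKK3), had no island within 71.7 kb.

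Among the JNK genes, Mapk10 (JNK3), the isoform found mainly in the nervous system, had 2 islands. The one with 89 reads (71.5 to 110) covered its first listed start (chromosome 5, 103208782 to 103211581), and the other, 600 bp wide with 36 reads (25.2 to 49.8), lay 49.4 kb into the gene. The narrow island was at percentile 0.943 by reads and 99.4 by reads per 200 bp. Mapk10 is the longest member, at 304 kb. The broadly expressed relatives Mapk8 (JNK1) and Mapk9 (JNK2) had their nearest islands 102 and 51.7 kb away, and the JNK activators Map2k4 (MKK4) and Map2k7 (MKK7) 212 and 363 kb away.

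In the ERK branch the nearest islands lay 8.38 kb from Map2k1, 42.8 kb from Map2k2 and 80.3 kb from Mapk3. The island near Map2k1 had 130 reads, overlapped Zwilch and the ribosomal protein gene Rpl4, and lay 76.2 kb from the start of Map2k1. Mapk7 (ERK5) had an island of 115 reads (94.9 to 138; chromosome 11, 61484699 to 61488698) that ended 0.114 kb outside the gene, on the side away from its starts, 5.56 kb from the nearer one. This island overlapped Mfap4, a gene of the extracellular matrix. Map3k3 (MEKK3), which acts in the ERK5 branch, had an island of 75 reads (59.0 to 94.0; chromosome 11, 106153687 to 106155886) inside the gene near its far end, 69.1 kb from the start. A second island of 56 reads, 3.63 kb beyond the gene, overlapped Limd2 and Gm10840 and covered a listed start of Limd2. Map2k5 (MEK5) and Map3k2 (MEKK2), the other ERK5 kinases, had their nearest islands 39.2 and 719 kb away.

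Of the atypical MAP kinases, which lack the usual MAP2K activators, Mapk6 (ERK3) had an island of 76 reads (59.9 to 95.1; chromosome 9, 75408394 to 75410393) over both of its listed starts. Mapk4 (ERK4) had 2 islands well inside the gene, of 51 reads (38 to 67.1) and 68 reads (52.8 to 86.2), 25.7 and 41.9 kb from its lower-coordinate end. The second had the lowest reads per 200 bp of any member island, 4.53. The island nearest to Mapk15 was 11.2 kb away.

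**Figure D3:**
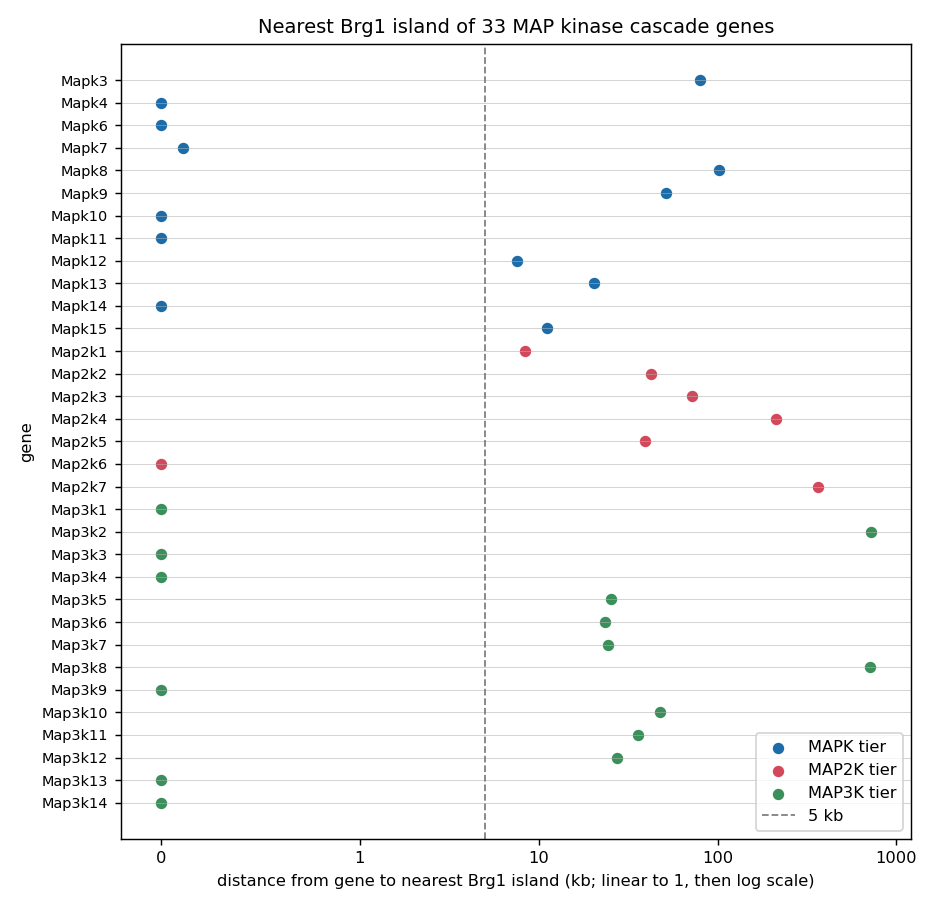
Distance from each of the 33 genes to its nearest Brg1 island in kb (horizontal axis, linear to 1 kb and logarithmic beyond; 0 means overlap), coloured by tier, with the 5 kb limit dashed. Of the 13 genes left of the line, 12 overlap an island and Mapk7 lies 0.114 kb from one; the nearest to the right are Mapk12 at 7.59 kb and Map2k1 at 8.38 kb.

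Map3k1 (MEKK1), a MAP3K that feeds the JNK and ERK branches and also carries a ubiquitin ligase domain, stood out by the extent of its islands. It held 8 islands, against a median of 1 in members with any and 1 in all protein-coding genes with any. In the order of transcription they had 248 reads (218 to 281), 231 (202 to 263), 60 (45.8 to 77.2), 230 (201 to 262), 166 (142 to 193), 63 (48.4 to 80.6), 94 (76.0 to 115) and 117 (96.8 to 140). Of these, 5 were 4000 bp wide or more, those with 248, 231, 230, 166 and 117 reads, and such widths made up 9.04% of all islands. The first covered the listed start (chromosome 13, 111804793 to 111811192), from 2.2 kb before to 4.2 kb after it. The annotated gene extends beyond this start, and the first island lay inside it, 7.08 kb from its higher-coordinate end. The others followed, also inside the gene, from 5.2 kb to 61.2 kb after the start.

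Together the Map3k1 islands had 1209 reads (exact Poisson 95% interval 1142 to 1279), which were 46.2% of the 2617 reads at all members. They covered 40.0 kb, or 55.7% of the gene's 71.8 kb. Of the 4941 protein-coding genes of at least 50 kb, 1 was covered to a higher share: Sfi1, at 98.3%, where 20816 reads fell. The median covered share of the 1596 such genes with an island was 1.89%. Of all protein-coding genes 9, Map3k1 among them, had 8 or more islands, and 0 of these were shorter than Map3k1. Sfi1 is named here after its values were seen. Reads per 200 bp in the Map3k1 islands were 5.09 to 7.75, against a median of 6.27 in all islands, so the high totals went with width. Neighbouring islands were between 1000 and 9800 bp apart, and 3 of the 7 gaps were 2000 bp or less; whether a region is reported as 1 island or several depends on the caller's gap setting, a value that no source used here states. The next island lay 60.8 kb beyond the run on the promoter side and 1080 kb beyond it on the other.

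**Figure D4:**
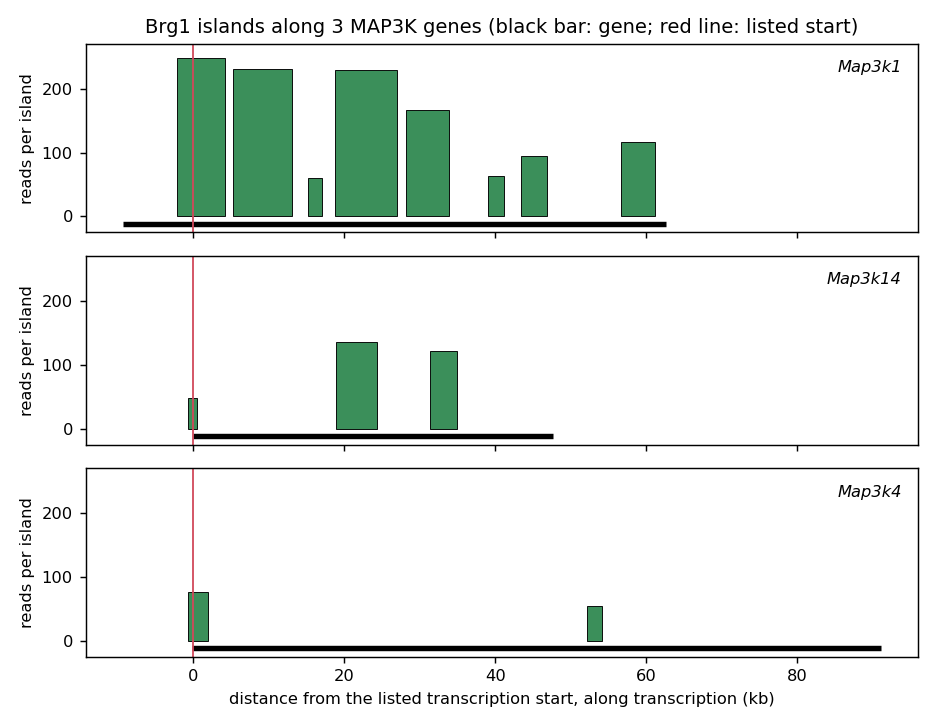
Brg1 islands along Map3k1, Map3k14 and Map3k4, with distance from the listed transcription start along transcription in kb (horizontal axis) and reads per island (vertical axis, bar height; bar width is island width); the black bar is the gene and the red line the start. Map3k1 carries 8 islands from 2.2 kb before the start to 61.2 kb after it, Map3k14 has 3 and Map3k4 has 2, each with 1 at the start.

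The other MAP3K genes had fewer islands. Map3k14 (NIK), which activates the noncanonical NF-kappa-B pathway, had 3, and the one at its start had the fewest reads: 48 (35.4 to 63.6), against 136 (114 to 161) and 121 (100 to 145) inside the gene, 18.9 and 31.3 kb from the start. These covered 20% of the gene. Map3k4 (MEKK4), which acts on the p38 and JNK branches, had an island of 76 reads (59.9 to 95.1; chromosome 17, 12316735 to 12319334) at its start and one of 54 reads (40.6 to 70.5) 52.1 kb away.

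Of the 5 mixed lineage kinase genes, which act mainly on JNK and, in the case of the dual leucine zipper kinases Map3k12 and Map3k13, in the response of neurons to axon injury, 2 had an island (40%, Wilson 95% interval 11.8 to 76.9), where their lengths would give 0.887. The count was 1 with islands of at least the median reads (all genes: 9.66%). It was also 1 with the 1464 islands of most reads (all genes: 5.21%) and near gene ends only (all genes: 13.1%). Map3k9 (MLK1) had one of 44 reads (32.0 to 59.1; chromosome 12, 81780214 to 81781613) at its start, at percentile 5.14 of all islands by reads and 50.4 by reads per 200 bp. Map3k13 (LZK) had one of 149 reads (126 to 175; chromosome 16, 21877728 to 21883327), at percentile 96.8 by reads and 14.8 by reads per 200 bp. It lay inside the annotated gene, 8.64 kb before the listed start and 53.7 kb from the lower-coordinate end. The nearest islands of Map3k10 (MLK2), Map3k11 (MLK3) and Map3k12 (DLK) were 48.0, 35.9 and 27.4 kb away.

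Among the MAP3K genes of stress and cytokine signals, Map3k5 (ASK1), Map3k6 (ASK2) and Map3k7 (TAK1) had their nearest islands 25.3, 23.6 and 24.5 kb away. Map3k8 (TPL2), which activates the ERK branch in immune cells, had its nearest 715 kb away. Over the 20 members without an island the nearest one lay at a median of 41.0 kb (7.59 to 719 kb). Closest to the limit of 5 kb were Mapk7 inside it, at 0.114 kb, and Mapk12 and Map2k1 outside it, at 7.59 and 8.38 kb.

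**Figure D5:**
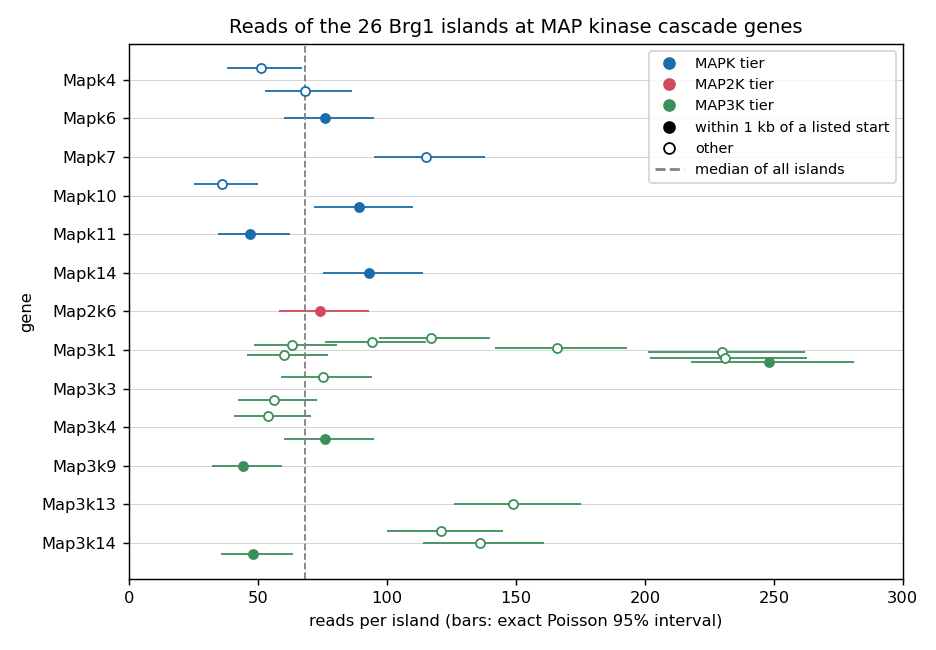
Reads of each of the 26 islands at the 13 members with one (horizontal axis; bars are exact Poisson 95% intervals), by gene and coloured by tier; filled points lie within 1 kb of a listed start and the dashed line is the median of all islands, 68 reads. The points of Map3k1 reach 248 reads, those of the MAPK genes lie between 36 and 115, and the Map2k6 point lies at 74.

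Of the 26 member islands, 16 were above the median of all islands in reads, and 10 of the 18 outside Map3k1 were. The 18 had a median of 74.5 reads (36 to 149), and all islands a median of 68. In reads per 200 bp the 26 had a median of 6.33 (4.53 to 12), and all islands 6.27. Of the 8 in Map3k1, 3 were among the 1% of islands with the most reads, and no island of another member was. Of the 24 islands in genes with a listed start, 9 lay within 1 kb of one and 15 over 5 kb from every one, 7 of these in Map3k1.

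Other genes of the pathway were looked up from 6 further lists. Of 83 genes, 39 had an island (47.0%, Wilson 95% interval 36.6 to 57.6), where their lengths would give 17.5. Nuclear targets of MAP kinases, among them the AP-1 and Ets factors, had the highest share, 14 of 17 (82.4%, 59.0 to 93.8), with lengths giving 3.06. Their highest counts were at the immediate early genes Egr1 with 223 reads (195 to 254), Jun with 209 (182 to 239) and Junb with 172 (147 to 200). Of the phosphatases and inhibitors that end the signal, 7 of 16 had one (43.8%, 23.1 to 66.8), where their lengths would give 2.28. The highest counts were at the MAPK phosphatases Dusp4 with 166 reads (142 to 193) and Dusp6, which acts on ERK, with 143 (121 to 168). The feedback inhibitor Spry2 followed with 136 (114 to 161). At or above the median reads, 10 nuclear targets and 5 phosphatases and inhibitors had an island (all genes: 9.66%). Among the 1464 islands of most reads the counts were 6 and 3 (all genes: 5.21%).

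Upstream, 6 of 12 Ras, Raf and exchange factor genes had an island (50%, 25.4 to 74.6), with the highest counts at Sos1 with 70 reads, Hras with 67 and Sos2 with 55; the Sos genes encode exchange factors that load Ras with GTP. With islands of at least the median reads the count of this list was 1 of 12, against 9.66% of all protein-coding genes. With the 1464 islands of most reads it was 0 of 12, against 5.21%. Further MAP3K and MAP4K genes had one in 5 of 14 (35.7%, 16.3 to 61.2), led by Tnik with 125 reads, Map4k3 with 101 and Map3k20 with 85. Scaffolds and partners had one in 5 of 13 (38.5%, 17.7 to 64.5), led by the JNK scaffold Spag9 with 78 reads, Tab2, a partner of TAK1, with 75, and Mapkap1 with 72. Kinases downstream of MAPK had one in 2 of 11 (18.2%, 5.14 to 47.7), Mapkapk2 with 77 reads, a p38 substrate, and Rps6ka3 with 68, an ERK substrate. The lengths of these 4 lists would give 2.84, 3.77, 2.81 and 2.73 genes. With islands of at least the median reads (all genes: 9.66%), 4 further MAP3K and MAP4K genes, 3 scaffolds and partners and 2 downstream kinases had one. With the 1464 islands of most reads (all genes: 5.21%) these counts were 2, 0 and 0.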

How the data were processed

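The labels' protocols describe dissociated, crosslinked and sonicated tumour cells, a NEBNext ChIP-seq library kit and a HiSeq instrument. Per the submitters' processing notes, Bowtie 0.12.7, Picard 1.127 and SICER 1.1 were used, and the builds mm9 and mm10 are named. Which step used which build, the caller's window, gap and threshold, and whether the input served as control, are not given in the sources that were used.

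The deposited file gives for each of 5727 islands a position and a whole number, taken from its values as the count of reads; it is the authors' own count, not scaled for depth or width, and was used only within this list. Reads per 200 bp were computed from it. Starts count from 0 and ends name the last base, since 5724 widths are then multiples of 200 bp; coordinates are printed 1-based.

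Genes were the protein-coding genes of RefSeq GRCm38.p6 on the chromosomes with islands (21631); all 33 members matched by symbol. Starts and promoter letters came from the RefSeq promoter table, which gave strand for 28 members; the table of proteins was not used here. Islands were assigned by any overlap within 5 kb of the gene or 1 kb of a start. Wilson 95% intervals were computed for shares, and exact Poisson 95% intervals for reads. Expected numbers by length sum the shares of all genes in 4 length classes. Genes named are all members with an island, the members without one by distance, and up to 3 genes per further list by reads. Members, lists and the comparison of branches were chosen with earlier results of these data known. The assignment was tested on simulated islands. Python 3.11.15, pandas 2.3.3 and scipy 1.17.1 were used.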

Additional observations from a re-analysis of the deposited data

How the results depend on the processing

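Of 157 alternative counts, 129 were within 1.5 times the reported count, and 2 of the 28 others were higher. With only the 2938 islands of 68 reads (the median) or more, 11 members had an island (all genes: 9.66%), and Mapk11 and Map3k9 dropped out; the other pathway genes fell to 25. With the 1464 islands of most reads, 6 members did (all genes: 5.21%): 3 MAPK, 0 MAP2K and 3 MAP3K genes, with 1 in the p38 branch, and 11 other pathway genes. Within 10 kb, 15 members did (all genes: 18.9%), as Mapk12 and Map2k1 came in, which gave 2 MAP2K genes and 1 gene in the ERK branch. Near gene ends only, 10 members did (all genes: 13.1%), and 0 MAP2K genes. Without the island at Mapk7, which overlaps Mfap4, 12 members did. This was so both when an island had to overlap the gene (all genes: 14.7%) and when it went to its nearest gene (all genes: 15.3%). At listed starts the count was 9 at 0, 1, 2 and 5 kb (all genes with a listed start: 8.57%, 9.53%, 9.95% and 11.1%). It was 6 with islands at or above the median reads (all genes with a listed start: 5.21%). For 10 of the 13 highest islands, the percentile by reads per 200 bp lay outside the percentiles that the Poisson interval of the reads spans. In the moved counts fewer islands or another distance follow from the alternative's construction. No paired analysis was possible because there is 1 ChIP library. The counts rest on 1 library of unknown depth, so a share or an absence carries no error between animals.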
